A study of Danio rerio with 5 samples.

Results

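The crystallin genes of the zebrafish were described here in whole larvae homozygous for the zbtb24mk22 allele and in wild-type larvae. A gene was a member if its symbol began with crya, cryb or cryg, with the crybg symbols left out because they name a separate family that is not made of lens crystallins. This gave 53 genes of the 21854 listed, namely 3 alpha, 13 beta and 37 gamma crystallins. The RNA came from pools of 10 larvae at 2 weeks post-fertilization. There were 3 libraries labelled Mutant (zbtb24mk22/mk22, a large deletion that removes coding exons of zbtb24 from every tissue) and 2 labelled WT, and no other allele or agent was named for either group. The deposited WT columns are numbered 2 and 3 and could not be tied to a sample title, so those libraries are called WT column 2 and WT column 3. The labels give fin as the source and larvae as the stage, and the series text gives whole larvae for RNA. Lens, photoreceptor and skeletal muscle transcripts were all abundant in every library.

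Crystallins are the soluble proteins that fill the fibre cells of the lens and give it its transparency and refractive power. Alpha crystallins are small heat shock proteins that act as chaperones, whereas beta and gamma crystallins share a fold of Greek key motifs, the betas as oligomers and the gammas as monomers. Fish carry a large family of gamma M crystallins, rich in methionine and suited to a dense, hard lens, most of which lie side by side as near-identical copies. Their transcripts come almost wholly from lens cells, which are a very small part of a larva.

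The libraries labelled Mutant held 24504651 to 26711419 reads assigned to genes, and those labelled WT held 23796792 and 28601962. Values are scaled counts, that is reads corrected for library size by the authors' size factors, and 1 read was worth 0.861 to 1.08. They are not per length, so they compare a gene between libraries and not the transcript amount of a gene with that of another. Words such as abundant and scarce, and the sums over genes, refer below to scaled counts without a correction for length. The estimate for the targeted gene went against the labels, but it did not pass the threshold. The scaled count of zbtb24 was 155, 175 and 282 in the libraries labelled Mutant, against 127 and 77.3 in those labelled WT, although the allele lacks coding exons. Its log2 fold change was 0.98 (SE 0.28, limma adjusted p = 0.0642). Counts are per gene, and reads inside and outside the deleted exons were not told apart. Another gene, cdca7a, the relative of a mammalian gene under the control of ZBTB24, had 255, 199 and 40.4 in the libraries labelled Mutant, against 300 and 563 in those labelled WT, with groups apart but no call (-1.68, SE 0.63, adjusted p = 0.127). Every direction below is given by the labels as deposited. Of 20307 genes tested, 544 were lower (2.68%) and 674 higher (3.32%) in the libraries labelled Mutant at an adjusted p under 0.05.

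Crystallin genes fell in the libraries labelled Mutant in each of the 3 classes, and none rose. Of the 53 genes, 51 reached the minimum mean of 10 scaled counts and entered the test. Of these, 19 were lower (1 alpha, 6 beta and 12 gamma) and 0 higher, beside backgrounds of 2.68% and 3.32% over all genes. At an unadjusted p under 0.05 also 0 were higher, beside 2661 of all 20307 genes, and voom with limma gave 0, beside 662. The only genes with an estimate above 0 were cryabb and crybb2. The 32 remaining genes did not pass the threshold. An estimate below 0 was found for 49 of 51 crystallins, beside 50.2% of all genes tested, and their median log2 fold change was -0.43, beside -0.001 for all genes. In 39 crystallins every library labelled Mutant lay below both labelled WT, beside 22.7% of all genes, and in 0 did they all lie above, beside 22.3%. Crystallin genes were measured in the same libraries and many are near-identical copies, so these counts are not counts of independent observations. At least a 2-fold lower level was reached by 2 of the 19 genes, cryba1a and crygm7, beside 0.355% of all genes, and no crystallin was 2-fold higher and called, beside 0.704%.

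Summed over all 53 genes, crystallins had 251710, 269640 and 237355 scaled counts in the libraries labelled Mutant, against 342940 and 324564 in those labelled WT. They made up 0.952%, 1.02% and 0.898% of the libraries labelled Mutant, against 1.39% and 1.29% of those labelled WT. The groups did not overlap, and the Mutant mean was 75.8% of the WT mean. No test was made on a sum. In bulk RNA of whole larvae, fewer lens cells and less crystallin RNA per cell cannot be told apart.

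Each class was lower as a sum in the libraries labelled Mutant. Alpha crystallins summed to 1509, 1792 and 1417 in the libraries labelled Mutant, against 2942 and 3101 in those labelled WT, so that the Mutant mean was 52.1% of the WT mean. Beta crystallins summed to 120798, 124218 and 109878, against 153762 and 152791 in the libraries labelled WT (77.2%). For gamma crystallins the sums were 129403, 143630 and 126059, against 186235 and 168672 in the libraries labelled WT (75.0%). The alpha sum was almost wholly 1 gene, cryaa, whereas the beta and gamma sums were spread over many. The medians of the single-gene log2 fold changes were -0.97 for alpha, -0.42 for beta and -0.44 for gamma genes. A difference between the classes was not tested.

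**Figure D1:**
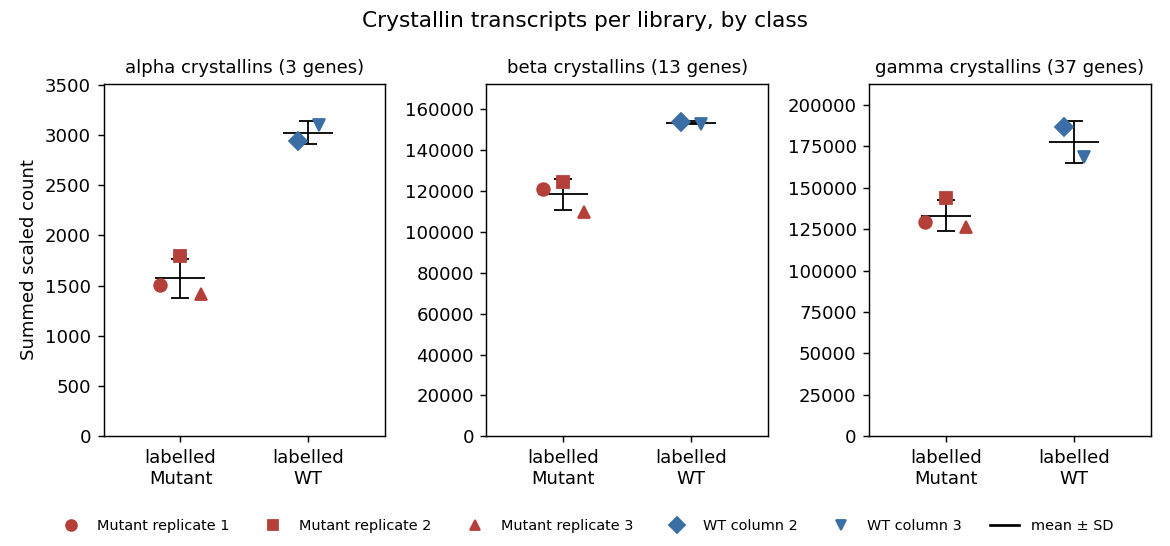
Summed scaled counts of the alpha, beta and gamma crystallins (y axis, from 0) in each library labelled Mutant (left) and labelled WT (right), with the mean and SD of each group as a bar and whiskers. In each class the 3 libraries labelled Mutant lie below both libraries labelled WT, with the alpha mean at 52.1% of the WT mean.

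Among the alpha crystallins, cryaa, the alpha A chaperone of the lens, had scaled counts of 1464, 1727 and 1367 in the libraries labelled Mutant, against 2873 and 3038 in those labelled WT. All 3 Mutant values were far below both WT values. Its log2 fold change was -0.97 (SE 0.12, limma adjusted p = 0.00577), the smallest adjusted p of any crystallin, and cryaa was the only member still called when WT column 2 was left out (adjusted p = 0.0287). The alpha B paralogues were scarce. The gene cryaba, which in zebrafish is expressed mainly in the lens, had 8.91, 11.8 and 23.2, against 21.5 and 34.9 in the libraries labelled WT, and Mutant replicate 3 lay above WT column 2. Its estimate was as large as that of cryaa but its error was wider (log2 fold change -0.97, SE 0.42, adjusted p = 0.179), and it was -0.63 without WT column 3. The other copy, cryabb, which is expressed more widely in the body, had 35.6, 52.7 and 27.3, against 48.2 and 27.5 in the libraries labelled WT. These values overlapped throughout (log2 fold change 0.03, SE 0.34, adjusted p = 0.969).

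**Figure D2:**
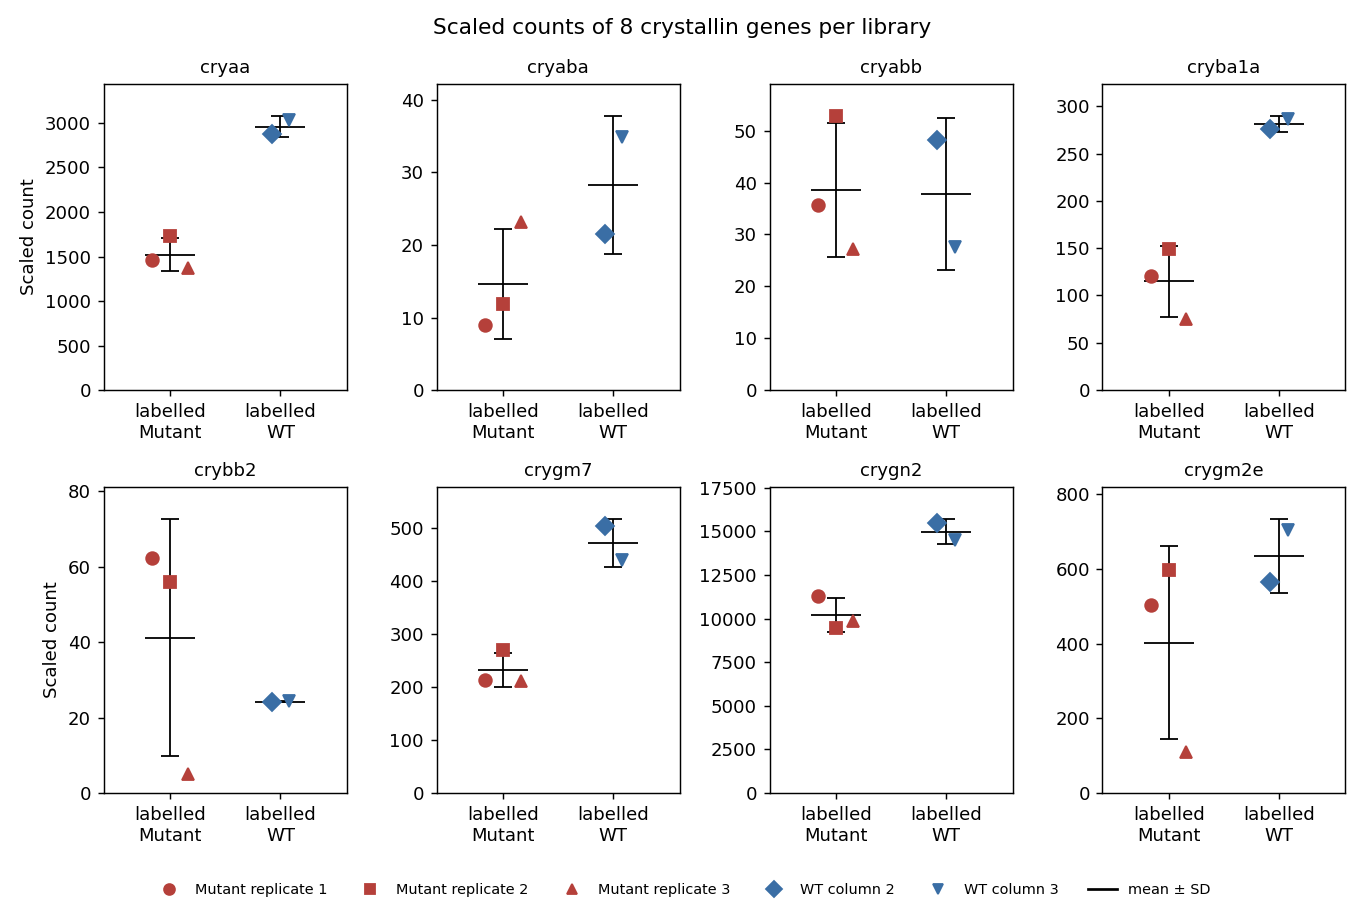
Scaled counts (y axis, from 0) of 8 crystallin genes in each library labelled Mutant (left) and labelled WT (right), with the mean and SD of each group. The groups are apart for cryaa, cryba1a, crygm7 and crygn2, whereas Mutant replicate 3 stands far below the other Mutant libraries for crybb2 (5.05) and crygm2e (110).

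Beta A crystallins are the acidic subunits of the beta oligomers. Of these, 4 of 7 fell, beside 2.68% of all genes, with a median log2 fold change of -0.43. The largest change of any crystallin was that of cryba1a, with 121, 150 and 74.8 in the libraries labelled Mutant, against 275 and 287 in those labelled WT. Here the highest Mutant value was well under the lower WT value (log2 fold change -1.34, SE 0.25, limma adjusted p = 0.0234). A more distant copy, cryba1l2, had 630, 680 and 458, against 1140 and 1000 in the libraries labelled WT (log2 fold change -0.88, SE 0.16, adjusted p = 0.0232). Its abundant relative cryba1l1 had 13672, 12749 and 12068, against 17917 and 16705 in the libraries labelled WT (-0.43, SE 0.10, adjusted p = 0.0368). The groups were again apart, at a smaller fold. The same held for cryba4, with 12866, 12747 and 11532, against 16463 and 15849 in the libraries labelled WT (-0.39, SE 0.10, adjusted p = 0.0469).

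The other beta A genes did not pass the test. The second copy of A1, cryba1b, had 15627, 15939 and 14966, against 18527 and 19193 in the libraries labelled WT (log2 fold change -0.28, SE 0.09, limma adjusted p = 0.0931). For cryba2b the values were 10100, 12077 and 8514, against 13859 and 13422 in the libraries labelled WT (-0.43, SE 0.14, adjusted p = 0.0864). In both genes the groups were apart although the threshold was missed. Its paralogue cryba2a behaved otherwise, with 8300, 9752 and 8427, against 9095 and 8771 in the libraries labelled WT. These overlapped, and the estimate was near 0 (-0.02, SE 0.10, adjusted p = 0.915), which made cryba2a the only abundant crystallin (a mean of 1000 scaled counts or more) of 31 whose groups overlapped. Over all genes of that abundance 2.9% were lower, and 16 of the 31 crystallins were. Every library labelled Mutant lay below both labelled WT in 30 of the 31, beside 946 of all 4204 genes of that abundance.

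Beta B crystallins are the basic subunits, and 2 of 6 fell, beside 2.68% of all genes, with a median log2 fold change of -0.41. The lens fibre protein gene crybb1 had 19551, 17721 and 17855 scaled counts in the libraries labelled Mutant, against 24074 and 25435 in those labelled WT (log2 fold change -0.43, SE 0.10, limma adjusted p = 0.0369). Its relative crybb1l2 had 20519, 20810 and 19780, against 27571 and 26877 in the libraries labelled WT (-0.42, SE 0.09, adjusted p = 0.0352). For both genes the libraries of a group lay close together and the groups were well apart. Another gene of this kind, crybb1l1, had 19270, 21440 and 16134, against 24711 and 25056 in the libraries labelled WT. Its estimate was similar (-0.40, SE 0.12), but the spread of the Mutant libraries was larger and the adjusted p was 0.0818.

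The remaining beta B genes were low in every library. For crybb1l3 the scaled counts were 66.3, 84.0 and 54.6, against 89.5 and 157 in the libraries labelled WT (log2 fold change -0.81, SE 0.27, limma adjusted p = 0.0955), and the estimate was -0.41 without WT column 3 and -1.21 without WT column 2. For crybb3 they were 14.8, 12.9 and 10.1, against 16.4 and 12.7 in the libraries labelled WT, and overlapped (-0.19, SE 0.36, adjusted p = 0.760). The gene crybb2, the ortholog of a major mammalian lens protein, had 62.3, 56.0 and 5.05, against 24.1 and 24.3 in the libraries labelled WT. Here 2 Mutant libraries were above and Mutant replicate 3 was below both WT libraries, so that its mean told little (0.15, SE 0.82, adjusted p = 0.927). Without Mutant replicate 3, crybb2 was the only crystallin called higher (1.25, adjusted p = 0.0268).

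**Figure D3:**
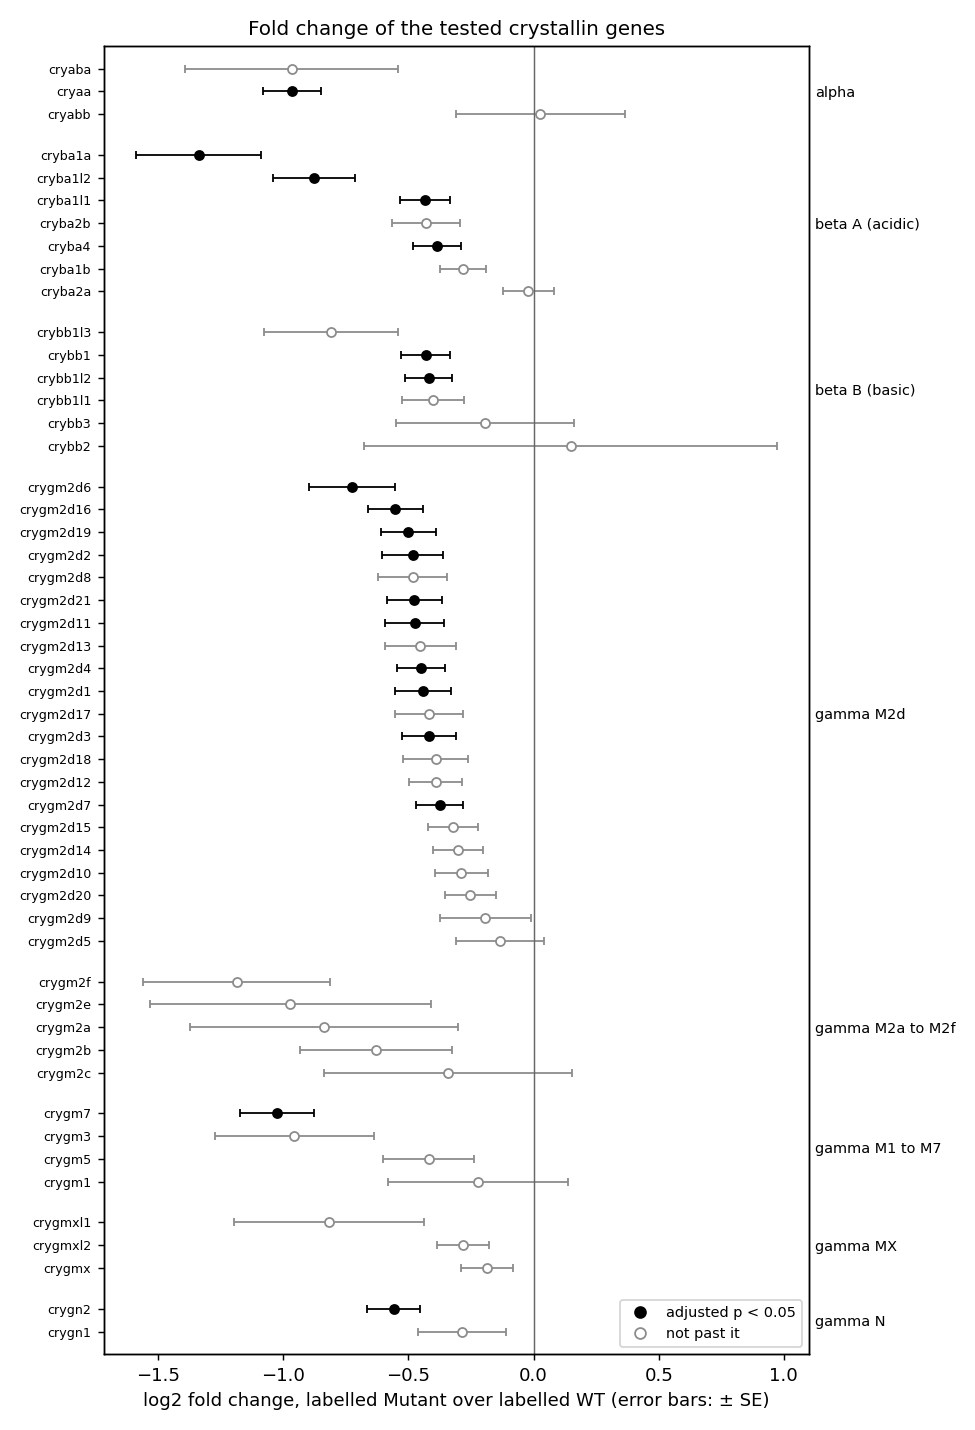
Log2 fold change of each of the 51 tested crystallins, labelled Mutant over labelled WT (x axis), with the SE as error bars and genes grouped by class and subgroup down the y axis; filled points passed an adjusted p under 0.05. All but 2 estimates lie below 0, and the M2d genes form a narrow band between -0.73 and -0.13.

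Most gamma crystallins lie together on chromosome 9. In the gene order of the RefSeq annotation of assembly GRCz12tu, 33 of the 37 gamma genes stood within a stretch of 36 protein-coding genes, with only 3 other protein-coding genes among them. The table's own values were counted on the older build danRer7, so the order and no coordinates were used. The symbols of crygm2d8 and crygm2d9 belong to other M2d copies in a table of current gene names, and their places within the stretch are uncertain. The reads of near-identical M2d copies can also be shared or lost in counting, so that a value for a single copy is less certain than the sum over them.

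The 21 M2d genes, the core of that stretch, had estimates in a narrow band. Their sum was 100289, 113945 and 98068 in the libraries labelled Mutant, against 146750 and 132124 in those labelled WT, a Mutant mean of 74.7% of the WT mean. Single genes had a median log2 fold change of -0.42, with a range of -0.73 to -0.13. Of the 21 genes 10 fell, beside 2.68% of all genes. In 19 every library labelled Mutant lay below both labelled WT, beside 22.7% of all genes.

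The M2d gene with the largest change was crygm2d6, with 1335, 1479 and 923 in the libraries labelled Mutant, against 2009 and 2034 in those labelled WT (log2 fold change -0.73, SE 0.17, limma adjusted p = 0.0413). Next was crygm2d16, with 3863, 4513 and 4055, against 6575 and 5592 in the libraries labelled WT (-0.55, adjusted p = 0.0274). For crygm2d19 the scaled counts were 7268, 8604 and 7173, against 11318 and 10354 in the libraries labelled WT (-0.50, adjusted p = 0.0332). In all 3 the highest Mutant library stayed below the lower WT library. For crygm2d2 the values were 7661, 9073 and 8646, against 13272 and 10485 in the libraries labelled WT (-0.48, adjusted p = 0.0487), and the estimate was -0.31 without WT column 2. For crygm2d21 they were 3980, 4405 and 3624, against 5915 and 5215 in the libraries labelled WT (-0.48, adjusted p = 0.0384). For crygm2d11 they were 4697, 5301 and 4081, against 6815 and 6177 in the libraries labelled WT (-0.48, adjusted p = 0.0473). In these genes, too, Mutant replicate 2 was the highest Mutant library.

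Smaller changes past the threshold were found in 4 further M2d genes. The scaled count of crygm2d4 was 3803, 4326 and 4072 in the libraries labelled Mutant, against 5754 and 5349 in those labelled WT (log2 fold change -0.45, limma adjusted p = 0.0324). That of crygm2d1 was 8362, 10012 and 9510, against 13577 and 11656 in the libraries labelled WT (-0.44, adjusted p = 0.0496). WT column 2 was above WT column 3 in each of the 4. That of crygm2d3 was 6193, 7088 and 6908, against 9707 and 8296 in the libraries labelled WT (-0.42, adjusted p = 0.0498). That of crygm2d7 was 5717, 6335 and 5780, against 7886 and 7513 in the libraries labelled WT (-0.37, adjusted p = 0.0470). The calls on crygm2d1 and crygm2d3 lay just inside the threshold, and crygm2d12 (-0.39, adjusted p = 0.0581) and crygm2d8 (-0.48, adjusted p = 0.0679) just outside it. Among the copies near the threshold, the calls thus turn on small differences in estimate and in error.

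Only crygm2d9 and crygm2d5 of the M2d genes overlapped between the groups. The scaled count of crygm2d9 was 834, 884 and 550, against 843 and 850 in the libraries labelled WT (log2 fold change -0.19, SE 0.18, limma adjusted p = 0.525). That of crygm2d5 was 253, 246 and 175, against 251 and 236 in the libraries labelled WT (-0.13, SE 0.18, adjusted p = 0.659). In both, Mutant replicate 3 alone was low, and without it the estimates turned to 0.02 and 0.04. The 9 other M2d genes that missed the threshold had estimates of -0.48 to -0.25, with groups that did not overlap. Of these, crygm2d10 had 8706, 10130 and 9611, against 12302 and 10861 in the libraries labelled WT (-0.29, SE 0.11, adjusted p = 0.121).

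The other gamma crystallins of chromosome 9 varied more in their estimates. The gene crygm7, at an end of the stretch, had 214, 269 and 212 in the libraries labelled Mutant, against 503 and 439 in those labelled WT. This was a clear separation (log2 fold change -1.03, SE 0.15, limma adjusted p = 0.0127). Near the opposite end, crygm3 had 18.8, 35.5 and 19.2, against 47.3 and 45.5 in the libraries labelled WT (-0.96, SE 0.32, adjusted p = 0.0964). Its neighbour crygm5 had 228, 245 and 163, against 293 and 267 in the libraries labelled WT (-0.42, SE 0.18, adjusted p = 0.175), and -0.24 without Mutant replicate 3. In both genes the groups were apart, with too wide an error to pass.

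For the M2a to M2f genes none of 5 passed the test, although their median log2 fold change was -0.84. Of the 5 genes 1 was lower at an unadjusted p under 0.05, beside 13.6% of all genes. The gene crygm2f had 492, 623 and 197, against 897 and 891 in the libraries labelled WT (-1.19, SE 0.37, limma adjusted p = 0.0850). The gene crygm2e had 503, 596 and 110, against 565 and 704 in the libraries labelled WT (-0.97, SE 0.56, adjusted p = 0.297). In both genes Mutant replicate 3 lay far below the other Mutant libraries, but the groups were apart for crygm2f and overlapped for crygm2e. For crygm2a the values were 121, 129 and 27.3, against 136 and 135 in the libraries labelled WT (-0.84, SE 0.53, adjusted p = 0.345). For crygm2b they were 781, 766 and 336, against 832 and 989 in the libraries labelled WT (-0.63, SE 0.30, adjusted p = 0.219). Most of each estimate came from Mutant replicate 3, since without it crygm2e stood at -0.20, crygm2a at -0.12 and crygm2b at -0.23. The last gene, crygm2c, had 152, 537 and 134, against 372 and 214 in the libraries labelled WT, and its values were scattered in both groups (-0.34, SE 0.49, adjusted p = 0.695). Without Mutant replicate 3, crygm2f passed (-0.69, adjusted p = 0.0257), beside 2.34% of all genes lower. That fit leaves out the library that stood apart at crygm2f, so the call adds no support.

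Mutant replicate 3 was low at several neighbouring gamma genes. Its scaled count was under 0.5 times the mean of the other Mutant libraries in 8 of 51 tested crystallins, beside 1.13% of all genes, a limit chosen after the values were seen. The 8 were crybb2 and 7 gamma genes, of which 6 follow each other along the stretch from crygm1 through crygm2c, crygmxl1, crygm2b and crygm2a to crygm2e. Within that run, crygm1 had 315, 326 and 121, against 239 and 306 in the libraries labelled WT, and crygmxl1 had 145, 218 and 71.7, against 189 and 288 in the libraries labelled WT. The seventh gamma gene, crygm2f, lies beyond the M2d genes. At crygm2c, however, replicate 3 (134) lay near replicate 1 (152), and replicate 2 (537) stood apart. Set against the lower of the other Mutant libraries, replicate 3 was under 0.5 times it in 7 of 51 crystallins, crygm2c no longer among them, beside 0.591% of all genes. In the M2d genes between crygm2e and crygm2f the ratio to the mean of the others ran from 0.64 to 1.04. Mutant replicate 3 was the lowest Mutant library in 36 of 51 crystallins, beside 31.4% of all genes, and replicate 2 the highest in 40, beside 33.6%. Whether these values reflect the larvae or the library was not tested.

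**Figure D4:**
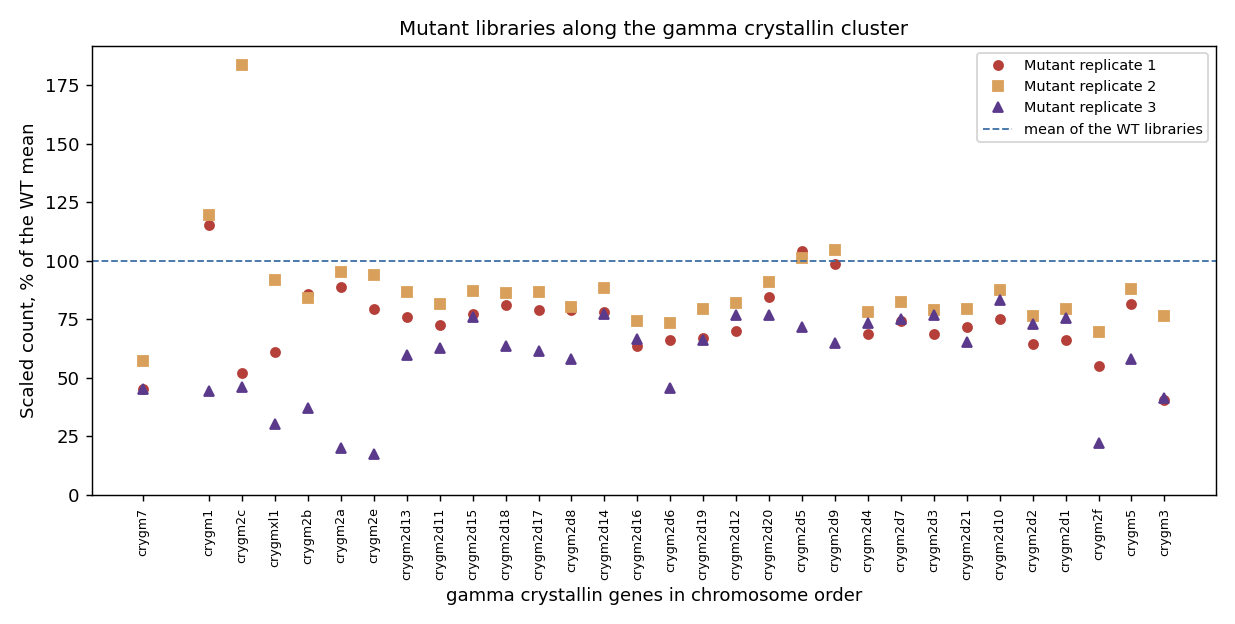
Scaled count of each Mutant library as a percentage of the mean of the WT libraries (y axis, from 0) for the tested gamma crystallins of the chromosome 9 stretch, in gene order (x axis). Mutant replicate 3 lies far below replicates 1 and 2 at crygm1, crygmxl1, crygm2b, crygm2a, crygm2e and crygm2f, and replicate 2 lies far above the others at crygm2c. Over the M2d genes replicate 3 was 0.64 to 1.04 times the mean of the others.

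Gamma crystallins elsewhere in the genome were also lower in the libraries labelled Mutant or did not pass. On chromosome 24, crygn2, a gamma N crystallin of the group intermediate between betas and gammas, had 11279, 9441 and 9882, against 15483 and 14501 in the libraries labelled WT (log2 fold change -0.56, SE 0.11, limma adjusted p = 0.0236). Its paralogue crygn1, on chromosome 2, had 754, 900 and 556, against 853 and 910 in the libraries labelled WT, with overlapping groups (-0.29, SE 0.18, adjusted p = 0.324, and -0.10 without Mutant replicate 3). On chromosome 12 lie crygmx and crygmxl2, both abundant. The first had 7328, 8352 and 8705, against 9641 and 8822 in the libraries labelled WT (-0.19, SE 0.11, adjusted p = 0.286). The second had 6775, 7239 and 7453, against 9411 and 8023 in the libraries labelled WT (-0.28, SE 0.10, adjusted p = 0.122). In both of these genes Mutant replicate 3 was the highest and not the lowest Mutant library, and the groups were apart by a small margin.

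The crystallins left untested for low values were crygs4 and crygm6. The gamma S gene crygs4 had 8.91, 1.08 and 3.03, against 20.7 and 8.47 in the libraries labelled WT. For crygm6 the scaled counts were 0.989, 4.31 and 1.01, against 4.30 and 4.23 in the libraries labelled WT. These values stand for 1 to 24 reads per library for crygs4 and 1 to 5 for crygm6, and no fold is given.

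The crystallin counts rest on few libraries. When WT column 2 was left out 1 crystallin was lower, beside 0.0689% of all genes, and 47 of 51 crystallins had an estimate below 0. Without WT column 3 there were 16 lower, beside 5.45% of all genes. Without Mutant replicate 1 there were 5 lower, beside 1.04%. Without Mutant replicate 2 there were 3, namely cryaa, cryba1a and crygm7, beside 0.108%. Without Mutant replicate 3, 8 crystallins were lower, beside 2.34%, and crybb2 was higher, and 44 of 51 estimates were below 0. The median over crystallins stayed between -0.50 and -0.33 in these fits. Permuting 2 and 3 libraries exactly gives no p under 0.1 for any gene, so limma's p-values rest on a variance shared across genes. The labels give separate pools, and p-values measure the spread between these pools only.

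Some other genes of lens fibre cells fell as well. Of 20 such genes tested, 6 fell, beside 2.68% of all genes. Of the same genes 0 rose, beside 3.32%. At an unadjusted p under 0.05 and by voom with limma 0 rose too, beside 2661 and 662 of all 20307 genes. The 14 others did not pass. Among them, 2 had an estimate above 0, tdrd7a (0.50, groups apart, limma adjusted p = 0.334) and tdrd7b (0.22, limma adjusted p = 0.531). The median log2 fold change of the 20 genes was -0.50. The lens membrane protein gene lim2.5 had 242, 254 and 155 in the libraries labelled Mutant, against 597 and 457 in those labelled WT (log2 fold change -1.30, limma adjusted p = 0.0189). Its relative lim2.4 had 1533, 1666 and 1150, against 2752 and 2514 in the libraries labelled WT (-0.88, adjusted p = 0.0205), and lim2.3 had 514, 638 and 442, against 925 and 873 in the libraries labelled WT (-0.77, adjusted p = 0.0257). The klotho family gene lctla had 695, 648 and 395, against 1346 and 1107 in the libraries labelled WT (-1.12, adjusted p = 0.0252). In these 4 genes, as in cryaa and cryba1a, the groups were apart and Mutant replicate 3 was the lowest library. The most abundant gene of the list, mipb, which encodes an aquaporin of lens fibre membranes, had 2855, 3234 and 2842, against 4061 and 4332 in the libraries labelled WT (-0.50, adjusted p = 0.0275). Its paralogue mipa did not pass (-0.21, adjusted p = 0.264). Of the list, 3 genes were lower when Mutant replicate 1 or 2 was left out, beside 1.04% and 0.108% of all genes. Without WT column 2 the median of the list was -0.53.

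Transcription factors of the lens, many of which also act in retina and brain, had 6 lower of 22 tested, beside 2.68% of all genes. Of these factors 0 were higher, beside 3.32%. At an unadjusted p under 0.05 and by voom with limma 0 were higher too, beside 2661 and 662 of all 20307 genes. Their median log2 fold change was -0.35. An estimate below 0 was found for 21 of the 22, beside 50.2% of all genes, and the exception was mafba (0.12). The eye regulators pax6a and pax6b were both lower, pax6a with 888, 916 and 793 in the libraries labelled Mutant, against 1418 and 1176 in those labelled WT (-0.58, limma adjusted p = 0.0289). For pax6b the values were 798, 851 and 641, against 1196 and 1079 in the libraries labelled WT (-0.58, adjusted p = 0.0377). The homeobox genes six7 and six3a fell too. For six7 the values were 435, 414 and 535, against 832 and 802 in the libraries labelled WT (-0.83, adjusted p = 0.0160). For six3a they were 296, 297 and 303, against 472 and 424 in the libraries labelled WT (-0.58, adjusted p = 0.0288). The estimates of foxe3 and pitx3, factors of the lens epithelium and early lens, were -0.02 (SE 0.28) and -0.08 (SE 0.13). Neither passed. The gene foxe3 was scarce, with 21.8, 29.1 and 30.3 in the libraries labelled Mutant, against 25.8 and 28.6 in those labelled WT, and its error was wide. The most abundant factor, meis1b, had 2644, 2487 and 2770, against 2805 and 2941 in the libraries labelled WT (-0.13, adjusted p = 0.419). Without Mutant replicate 1 there was 1 factor lower, beside 1.04% of all genes. Without Mutant replicate 2 there were 0, beside 0.108%, and without Mutant replicate 3 there were 3, beside 2.34%. Without WT column 2 the median of the factors was -0.26.

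Some genes of rod and cone photoreceptors fell too. Of 40 such genes tested, 14 were lower, beside 2.68% of all genes. Of the same genes 0 were higher, beside 3.32%. At an unadjusted p under 0.05 there was 1, guca1a, beside 2661 of all 20307 genes, and by voom with limma 0, beside 662. The 26 others did not pass, 6 of them with an estimate above 0. The median log2 fold change of the 40 genes was -0.48. The channel subunit cngb1a had 162, 179 and 267 in the libraries labelled Mutant, against 512 and 376 in those labelled WT (-1.15, limma adjusted p = 0.0240). The photoreceptor transcription factor crx had 779, 800 and 683, against 1479 and 1176 in the libraries labelled WT (-0.81, adjusted p = 0.0158), and the opsin kinase grk7a had 547, 536 and 474, against 925 and 894 in the libraries labelled WT (-0.81, adjusted p = 0.0121). The outer segment gene prph2b had 1258, 1534 and 1861, against 2771 and 2615 in the libraries labelled WT (-0.81, adjusted p = 0.0220). All 4 genes had groups that did not overlap. The most abundant gene, opn1sw1, the ultraviolet cone opsin, had 15059, 17873 and 27461, against 30009 and 29481 in the libraries labelled WT and missed the threshold (-0.61, adjusted p = 0.0988). For the whole list, the summed scaled count was 92006, 95003 and 117641, against 139637 and 140108 in the libraries labelled WT, or 72.6% of the WT mean. The sums of crystallins, other lens fibre genes and lens transcription factors stood at 75.8%, 69.4% and 81.0%. Mutant replicate 3, the lowest library for crystallins as a sum, was the highest Mutant library for this sum. Of the list, 2 genes were lower without Mutant replicate 2, beside 0.108% of all genes. Without WT column 2 the median of the list was -0.48. The part of eye tissue content in the crystallin difference was not tested.

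Skeletal muscle genes had estimates of the opposite sign. All 24 tested had an estimate above 0, with 6 higher and a median log2 fold change of 0.33. Over all genes 3.32% were higher, and 243 of the 4204 genes with a mean of at least 1000 scaled counts were. Their summed scaled count was 127.7% of the WT mean. It ranged from 2095132 to 2344037 in the libraries labelled Mutant, against 1720604 and 1799464 in those labelled WT. The largest changes were those of the actin gene acta1b, with 53960, 46120 and 34043, against 21412 and 26462 in the libraries labelled WT (0.88, limma adjusted p = 0.0282), the myosin light chain gene mylpfb (0.63, adjusted p = 0.0404), the parvalbumin gene pvalb1 (0.61, adjusted p = 0.0473) and the myosin heavy chain gene myhz1.2 (0.48, adjusted p = 0.0421). The most abundant, mylpfa, did not pass (0.37, adjusted p = 0.104). With Mutant replicate 1 or Mutant replicate 2 left out, 0 muscle genes were higher, but over all genes only 256 and 49 were. Without WT column 2 the muscle median was 0.30, and without WT column 3 it was 0.37. Rescaling the libraries to equal totals left 2 muscle genes higher. It gave 27 crystallins lower, but the share of all genes called lower also grew, from 2.68% to 5.43%. The median of all genes was then -0.09 and that of crystallins -0.51. The part of tissue make-up in the crystallin difference was not tested.

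Since alpha crystallins belong to the small heat shock proteins, the other members of that family were set beside them. Of 9 tested, only hspb1, a stress-induced chaperone, fell, with 847, 723 and 873 in the libraries labelled Mutant, against 1279 and 1197 in those labelled WT (-0.61, limma adjusted p = 0.0235), and 0 rose (2 at an unadjusted p under 0.05 and 0 by voom with limma). Over all genes 2.68% fell and 3.32% rose, and 2661 of 20307 rose at an unadjusted p under 0.05 and 662 by voom with limma. The median log2 fold change of the 9 was 0.09, and the most abundant, hspb8, did not pass (0.34, adjusted p = 0.0885). All 4 copies of stress-induced hsp70 fell, by far more than any crystallin. The lens-expressed copy hsp70l had 120, 107 and 159, against 1173 and 1060 in the libraries labelled WT (-3.13, adjusted p = 5.49e-05). The changes of hsp70.1, hsp70.2 and hsp70.3 were -3.62, -2.81 and -2.22 (adjusted p = 0.0127, 0.000817 and 0.000989). The hsp70 copies are near-identical and can share reads.

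**Figure D5:**
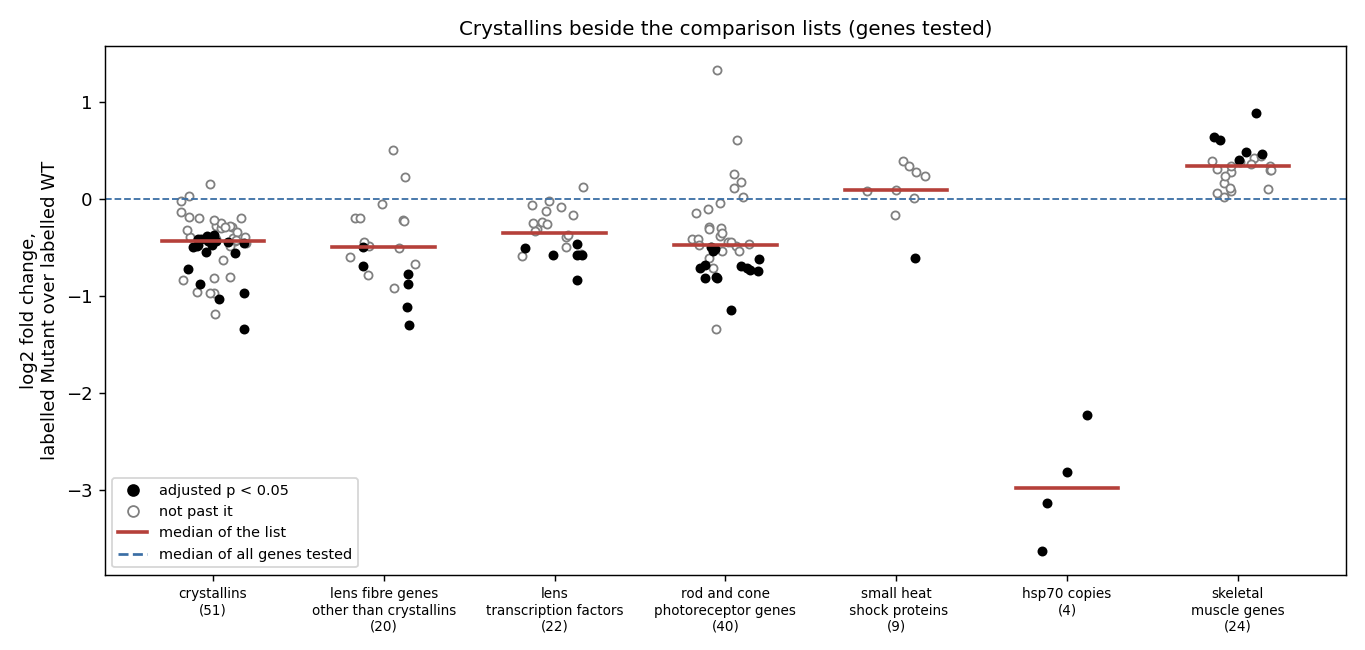
Log2 fold change of each tested gene, labelled Mutant over labelled WT (y axis), for the crystallins and the 6 comparison lists (x axis, number tested in parentheses); filled points passed an adjusted p under 0.05 and red bars are list medians. The medians of crystallins (-0.43), other lens fibre genes (-0.50) and photoreceptor genes (-0.48) lie below 0, and that of skeletal muscle genes (0.33) lies above it. Estimates above 0 were found for 2 crystallins, 2 other lens fibre genes and 6 photoreceptor genes.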

How the data were processed

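RNA from pools of 10 whole larvae was sequenced as paired ends from stranded poly(A) libraries. The authors mapped reads to danRer7 with STAR, counted them per gene with HTSeq 0.5.3 on an Ensembl annotation and scaled them with DESeq. The strand setting of the counting is not given in the sources used here, so overlapping genes are uncertain. What was deposited is a signal, the count of a gene over a size factor, plus 1. After 1 was subtracted, every value up to 1000 reads was a whole multiple of 1 read (tolerance 0.1 read). Larger values were not checked in this way. All values were rounded to whole reads, and their totals gave the depths.

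The scaled counts were log2 transformed after a pseudocount of 1 was added, which understates the fold of low genes, and were fitted in limma 3.58.1 under R 4.3.3 (trend on intensity, two-sided, no covariates). The test covered genes whose mean reached 10 scaled counts, with p-values adjusted over them by the Benjamini-Hochberg method and called under 0.05. The steps were tested on simulated data with planted changes larger than that of any tested crystallin. That run therefore did not cover changes of the size found for most crystallins.

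The members and lists were chosen with earlier results of these data known. The lists were written as symbols, and a symbol that was not found or led to a gene already listed added none. Thus 27 lens fibre symbols gave 20 genes and 23 symbols of lens transcription factors gave 22. For photoreceptors 44 symbols gave 40 genes, and for small heat shock proteins 11 gave 9. By rule, values per library were due for zbtb24, every alpha crystallin, every crystallin past the threshold, and in each class the 3 genes with the largest mean and the 3 with the largest change in each direction, and other crystallins could be named. Of each comparison list it named up to 4 called genes by size of change and the most abundant gene. Cdca7a, mipa, tdrd7a, tdrd7b, foxe3, pitx3, prox1a, prox1b, mafa, mafba and guca1a were chosen after their values were seen. Alternatives were pseudocounts of 0.5 and 8, no filter, a minimum of 50, equal library totals, quantile normalization, voom, a robust empirical Bayes step, and each library left out. Count models were not run. Promoter and protein sequences were not used here.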

Additional observations from a re-analysis of the deposited data

How the results depend on the processing

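No paired analysis was possible because the WT columns carry the numbers 2 and 3, which could not be tied to the sample titles. The planned count models on recovered reads were not run. Over 403 settings of single crystallins other than a library left out, 382 kept direction and call, 7 lost the call (crygm2d1, crygm2d3 and crygm2d7), 12 gained it and 2 changed sign, both of cryabb (-0.0551 at equal totals and -0.0073 with voom). Without a library, 176 of 255 kept both, 64 lost the call, 3 gained it and 12 changed sign. With a WT library left out, the lone WT library is assumed to vary like the others.

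Equal library totals gave 1103 genes lower and a median of -0.0853 over all genes, medians of -0.43 for lens transcription factors, -0.565 for photoreceptor genes, 0.001 for small heat shock proteins and 0.25 for muscle genes, and 2 muscle genes higher. Quantile normalization gave 2 muscle genes higher and a median of 0.16. A minimum mean of 50 gave medians of -0.38 for lens transcription factors and 0.16 for small heat shock proteins.

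Leaving out each library in turn gave 40 to 1315 genes higher and 14 to 1107 lower, with a median of -0.0042 to 0.0016 over all genes. Crystallins lower ranged from 1 to 16 (beta 0 to 4, gamma 0 to 11) and crystallins higher from 0 to 1 (beta 0 to 1). The alpha median ranged from -1.01 to -0.63. Lens fibre genes lower ranged from 0 to 6, lens transcription factors lower from 0 to 7 (median -0.41 to -0.26), photoreceptor genes lower from 0 to 16 and higher from 0 to 1 (median -0.55 to -0.47), small heat shock proteins lower from 0 to 1 (median 0.12 to 0.30) and muscle genes higher from 0 to 9. Each of these counts was at its lowest, alone or tied, without WT column 2. Signs changed in cryabb (-0.37 to 0.42), cryba2a (-0.0949 to 0.0214), crybb2 (-0.44 to 1.25), crygm1 (-0.47 to 0.24), crygm2c (-0.97 to 0.0573), crygm2d9 (-0.32 to 0.0205) and crygm2d5 (-0.23 to 0.0365). The cause of these shifts was not tested.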
